A study of Mus musculus with 4 samples.

Results

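Microglia and macrophages were found among cells that had been sorted from the mouse spinal cord as astrocytes. The members were chosen by their complement C1q transcripts. A member was a kept cell, holding over 500 but under 50000 gene UMIs (unique molecular identifiers, 1 per captured transcript), that held at least 5 UMIs of C1qa, C1qb and C1qc together and at least 10 per 10000 gene UMIs. The rule took 112 of 879 injured cells and 29 of 4159 uninjured cells, or 141 of 5038 in all.

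All mice carried a tamoxifen-induced Cre under Cx30, a gap junction gene of astrocytes, with a Cre-dependent tdTomato reporter (Cx30-Tom). All had received a library of adeno-associated viruses (AAVs) in the blood, each virus holding an enhancer, a reporter and a transcribed barcode. The injured mice had a contusion of the spinal cord and were sampled at 3 days after injury, and the uninjured mice had none. Segments of 5 mm around the injury, or at the same level, were freed of the meninges and digested with papain, and tdTomato-positive cells were sorted, with the animals of a condition pooled into 1 library pair. Each condition thus had 1 gene expression library and 1 barcode library from the same cells, no test between conditions was possible, and intervals below cover counting error only.

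Microglia are the resident macrophages of the central nervous system. In the healthy cord they express P2ry12, a receptor for ADP, and Tmem119, a membrane protein that blood-derived macrophages lack, and both genes are known to fall when microglia are activated. After injury monocytes enter from the blood through the chemokine receptor Ccr2 and become macrophages rich in Lyz2, the lysozyme gene of myeloid cells. Macrophages at the borders of the tissue, along vessels and in the meninges, express Mrc1, Pf4, F13a1 and often MHC class II. C1q is made by microglia and by these macrophages, so the rule does not separate them, and cells with little C1q fall outside it.

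The C1q genes lie together on the minus strand of chromosome 4 in GRCm38, with C1qb at 136880129 to 136886187, C1qc at 136889804 to 136893065 and C1qa at 136895917 to 136898803. P2ry12 lies on chromosome 3 at 59216272 to 59262871, Tmem119 on chromosome 5 at 113793729 to 113800516, Lyz2 on chromosome 10 at 117277331 to 117282321 and Ms4a7 on chromosome 19 at 11321039 to 11336146. The 250 bases before the start of C1qb and of P2ry12 are shown because they stand for the rule and for the homeostatic genes (RefSeq, GRCm38.p6, minus strand). Capitals mark AGGAAGT on either strand, a core that the ETS family, with the myeloid factor PU.1 (Spi1), is known to bind.
C1qb, chr4:136886201-136886450: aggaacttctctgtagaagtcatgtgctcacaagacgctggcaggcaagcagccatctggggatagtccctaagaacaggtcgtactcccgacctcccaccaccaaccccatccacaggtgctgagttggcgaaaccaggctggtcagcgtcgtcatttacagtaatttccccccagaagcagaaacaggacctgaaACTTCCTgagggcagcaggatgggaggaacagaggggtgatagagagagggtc
P2ry12, chr3:59262986-59263235: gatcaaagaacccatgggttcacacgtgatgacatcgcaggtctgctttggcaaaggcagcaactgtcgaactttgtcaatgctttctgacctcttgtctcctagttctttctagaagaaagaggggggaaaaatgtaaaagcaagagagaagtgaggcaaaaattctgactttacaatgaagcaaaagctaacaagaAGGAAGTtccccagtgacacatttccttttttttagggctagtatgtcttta
Such windows were at hand for 6 of the 9 marker genes, and 4 held the letters (C1qb, C1qc, P2ry12 and Lyz2), against 2377 of 27025 genes (8.80%). Of the homeostatic list 3 of 12 windows held them, of the monocyte-derived macrophage list 4 of 11 and of the general myeloid list 1 of 10. With 1 base more in front (GAGGAAGT) the marker windows with a match numbered 1 and with 1 base less (GGAAGT) 5, against 2.79% and 22.2% of all genes.

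Members held 12.7% of the injured kept cells (112 of 879, Clopper-Pearson 95% interval 10.6 to 15.1%) and 0.697% of the uninjured (29 of 4159, 0.467 to 1.00%). Both are shares of a tdTomato sort and not of the tissue. The C1q rate of members ran from 17.4 to 415 per 10000 with a median of 154 in the injured library, while uninjured members had 30.5 to 374 with a median of 102. Just outside stood cells that failed on the number of UMIs, at 44.7 per 10000 with 3 UMIs in the injured library and 39.2 with 3 UMIs in the uninjured. Of the kept cells, 646 injured and 4106 uninjured held no C1q UMI at all. A further 11 injured kept cells and 0 uninjured held at least 5 UMIs and 10 per 10000 of the myeloid adaptor genes Tyrobp and Fcer1g without meeting the C1q rule, and 4 of them had Ccr2.

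Injured members held more gene UMIs per cell, a number called depth below. They held 515 to 49940 gene UMIs with a median of 14398.5, while uninjured members held 571 to 14791 with a median of 3711. Astrocyte reference cells, which are kept non-members with at least 5 UMIs and 10 per 10000 of Aldoc, Slc1a2, Aqp4, Gja1, Aldh1l1 and Gjb6, numbered 390 injured and 3862 uninjured with medians of 4996.5 and 3438.5 gene UMIs. Summed UMIs of members came to 1749391 for injured and 112574 for uninjured mice, and levels below are counts per 1000000 of these sums (CPM). The libraries shared 7 cell barcodes, none of them a member.

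The markers matched the name. The 10 genes with the highest ratio of members over astrocyte reference cells included Ctss, a lysosomal protease of microglia, Lyz2 and Ly86 in both libraries beside the C1q genes that the rule used. Csf1r, the receptor that microglia need to survive, and Cd52 stood among them in the injured library, and Tyrobp, Fcer1g and Cd74 in the uninjured. Ctss was found at 3914 CPM in injured and 3491 CPM in uninjured members, against 4.23 and 0.407 CPM in the reference. All 15 genes of the general myeloid list passed 100 CPM, with a median log2 ratio of injured over uninjured members of 0.16.

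Markers of other cells were scarce. The T cell genes Cd3e and Cd3d, the B cell gene Cd79a, the neutrophil genes Ly6g, Retnlg and Cxcr2, the dendritic cell genes Clec9a, Cd209a and Ccr7 and the endothelial gene Cldn5 had 0 UMIs in the members of both libraries. Other genes of these lists were seen: S100a8, a calprotectin gene of neutrophils, had 30 UMIs in 11 injured members, S100a9 had 1, and Mmp9 had 5 for injured and 3 for uninjured mice. The dendritic cell genes Flt3 and Xcr1 had 1 UMI each and the B cell gene Ms4a1 had 2, all in injured members. The endothelial gene Pecam1 had 12 for injured and 3 for uninjured mice, Flt1 5 and 0, Kdr 3 and 1 and Ly6c1 0 and 1. The 9 astrocyte genes summed to 168 CPM in injured and 275 CPM in uninjured members, which is 1.31% and 1.73% of their level in the reference. Of the 6 genes that define the reference, no UMI was seen in 71 of 112 injured and 21 of 29 uninjured members. Only 1 injured member met the astrocyte cut, at a C1q rate of 27.9 per 10000 and with 41 UMIs of Gfap, 40 of Slc1a2 and 13 of tdTomato.

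Homeostatic transcripts were lower and lysozyme higher in the injured library. P2ry12 ran from 0 to 19.4 UMIs per 10000 in injured members with a median of 1.87, and from 0 to 36.1 with a median of 8.08 in uninjured members. Tmem119 ran from 0 to 9.46 with a median of 0.867 in the injured and from 0 to 26.2 with a median of 3.42 in the uninjured. Lyz2 ran from 0 to 487 with a median of 19.2 in the injured and from 0 to 116 with a median of 3.40 in the uninjured. The ranges overlapped for all 3 genes, since cells without the transcript were found in both libraries.

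As sums, P2ry12 stood at 286 CPM in injured and 764 CPM in uninjured members (log2 ratio −1.42, interval −1.75 to −1.07), and Tmem119 at 165 and 418 CPM (−1.34, −1.79 to −0.87). Lyz2 stood at 8325 and 2754 CPM (1.60, 1.43 to 1.76). Ms4a7, a membrane gene of macrophages outside the parenchyma, stood at 203 and 222 CPM (−0.13, −0.72 to 0.52). A single uninjured cell held 11 of the 25 uninjured Ms4a7 UMIs. The other 28 uninjured cells held 1.43 per 10000 gene UMIs, against 2.03 in injured members. The reference of both libraries held at most 4.14 CPM of P2ry12 and 9.51 CPM of Lyz2.

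The ratio of these UMIs within a library does not depend on how its counts are scaled. Injured members held 0.0528 UMIs of P2ry12 and Tmem119 per UMI of Lyz2 and Ms4a7 (788 over 14919, 0.0491 to 0.0567), and uninjured members 0.397 (133 over 335, 0.322 to 0.487). A single uninjured cell of 14791 gene UMIs held 172 of the 310 Lyz2 UMIs, and without it the uninjured ratio was 0.875 (0.688 to 1.11), which is further from the injured value. Injured cells scored male (a Y-linked transcript and no Xist) gave 0.0623 over 54 cells and those scored female (Xist and no Y-linked transcript) 0.0593 over 38 cells.

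Cuts at 1 per 10000 for P2ry12 with Tmem119 and at 5 per 10000 for Lyz2 with Ms4a7 set the members in 4 states, which are ranges of 2 rates and not cell types. In the injured library 65 of 112 members were in the both state (58.0%, 48.3 to 67.3%), 32 were macrophage only (28.6%, 20.4 to 37.9%), 12 homeostatic only (10.7%, 5.66 to 18.0%) and 3 neither. In the uninjured library 17 of 29 were homeostatic only (58.6%, 38.9 to 76.5%), and the both state and the macrophage only state held 6 each (20.7%, 7.99 to 39.7%). Thinned to 1000 UMIs per cell, which left out 7 injured and 3 uninjured members, the both state held 26.7% of injured members and the homeostatic only state 38.5% of uninjured members. The order of the injured states changed with it, since macrophage only then held 50.5%.

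**Figure D1:**
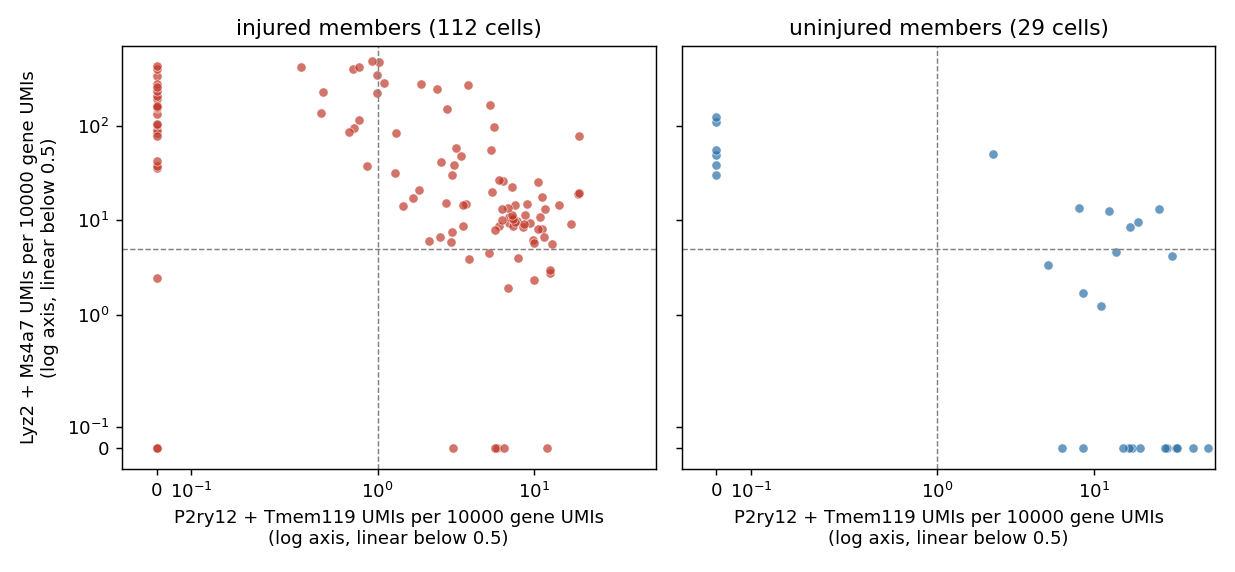
Each point is a member cell, with P2ry12 and Tmem119 UMIs per 10000 gene UMIs on the horizontal axis and Lyz2 and Ms4a7 UMIs per 10000 on the vertical axis (log axes, linear below 0.5); dashed lines mark the cuts at 1 and 5. The 112 injured cells form a band from high horizontal to high vertical values, and of the 29 uninjured cells 23 lie right of the cut and 6 at 0, where depth sets the lowest rate above 0 that a cell can have.

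All 6 uninjured macrophage only cells held 0 UMIs of P2ry12 and Tmem119, as did 20 of the 32 injured ones, while 12 injured ones held some below the cut. Depth limits a comparison of these cells between the libraries: 28 of 29 uninjured members held under 10000 gene UMIs, where 1 UMI already puts a cell over the homeostatic cut, against 37 of 112 injured members. The median Lyz2 and Ms4a7 rate of macrophage only cells was 161 per 10000 for injured and 52.5 for uninjured mice.

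The 6 uninjured macrophage only cells carried genes of border macrophages. Pf4 and F13a1 were found in 6 of 6, Mrc1 in 5 and Cd36, a scavenger receptor, in 6, while none of these genes had a UMI in the 17 homeostatic only cells. The MHC class II genes H2-Aa, H2-Ab1 and H2-Eb1 were found in 5 of the 6 and in no other uninjured member. Cd74, the chaperone of MHC class II, stood at 6272 CPM in them against 103 CPM in the homeostatic only cells. A further uninjured cell, in the both state with 1 P2ry12 UMI, held 14 UMIs of Mrc1 and 21 of Pf4. Of the uninjured reference cells 0.259% held Mrc1, the highest share among these 8 genes, at a median depth of 3438.5 gene UMIs against 3711 in members. Siglech, a lectin of microglia, had 0 UMIs in the 6 cells and was found in 15 of the 17 homeostatic only cells. The protocol states that the meninges were removed.

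One of these 6 cells stood apart. It held all 62 UMIs of Gpnmb and all 117 of Lgals3 among the uninjured members, 339 of 345 of Spp1 and 261 of 262 of Fabp5. These are genes of lipid-laden phagocytes. It had a Spp1 rate of 229 per 10000 against 0.614 over the other 28 cells, and 0 UMIs of Mrc1 and Cd74.

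Genes of border macrophages were also found in injured macrophage only cells, with F13a1 in 87.5% of them, Pf4 in 59.4% and Mrc1 in 34.4%. These genes stood at 627, 408 and 268 CPM, against 828, 1687 and 1146 CPM in the uninjured macrophage only cells. The injured macrophage only cells carried a further set as well. Compared with the both state of the same library, they held more Chil3, a chitinase-like protein of alternatively activated macrophages (433 and 15.9 CPM, ratio 27.3, interval 16.8 to 46.9), Thbs1, a matricellular protein (480 and 21.2 CPM, 22.6, 14.8 to 36.1), and Arg1, arginase (350 and 30.03 CPM, 11.7, 8.03 to 17.4). Ccr2 stood at 181 and 27.4 CPM (6.59, 4.32 to 10.3). In macrophage only cells 43.6% of the Arg1 UMIs and 34.5% of the Thbs1 UMIs lay in 1 cell. Of the 112 injured members 35 held a UMI of Ccr2, Arg1 or Chil3, and 23 of the 35 were macrophage only while 11 were in the both state. In the uninjured library 1 of 29 members held one. Ccr2 and Chil3 were each held by 0.256% of the injured reference cells and Arg1 by 0, at a median depth of 4996.5 against 14398.5 in members. Ly6c2 and Plac8, genes of fresh monocytes, had 2 UMIs each over all injured members. The C1q rule leaves out cells with little C1q, so this is no measure of fresh monocytes in the sort. Of the 11 injured cells with Tyrobp and Fcer1g that did not meet the rule, 3 held Ly6c2 and 4 Plac8.

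Of 1871 genes at 100 CPM or more in either of the 2 states, the 4 genes of the cuts left out, 129 (6.89%) were higher by 2-fold or more in macrophage only cells and 226 (12.1%) were lower. Of the monocyte-derived macrophage list 5 of 8 were higher and 0 lower, and of the border-associated list 4 of 5 were higher (Mrc1, F13a1, Pf4 and Cbr2). Of the homeostatic list 9 of 10 were lower and 0 higher. Siglech had 1 UMI against 187 (ratio of both over macrophage only 77.8, 13.8 to 3088), and Sparc, a matrix protein, Gpr34, a lysophospholipid receptor, and Olfml3 stood 17.6-fold, 17.5-fold and 8.61-fold lower in macrophage only cells. Sparc is abundant in astrocytes too, at 1921 CPM in the injured reference.

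Lipid and lysosome genes split between the states. Gpnmb stood at 1606 CPM in macrophage only cells and 103 CPM in the both state (15.5, 12.8 to 19.0), Lgals3, a galectin, at 2188 and 243 CPM (9.01, 7.88 to 10.3) and Fabp5, a fatty acid binding protein, at 2296 and 258 CPM (8.90, 7.82 to 10.2). Lpl, lipoprotein lipase, went the other way at 36.1 and 201 CPM (5.58-fold higher in the both state, 3.41 to 9.74), and so did Cst7, an inhibitor of cathepsins, at 6.37 and 83.9 CPM (13.2, 4.37 to 65.0). Spp1, osteopontin, was high in both states at 13878 and 6154 CPM. Hmox1, haem oxygenase, stood at 1665 and 145 CPM (11.5, 9.70 to 13.7), with 58.7% of the macrophage only UMIs in 1 cell, and 3 of 5 genes of iron and haem handling were higher by 2-fold or more.

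Chemokines split as well, with 3 of 15 genes of the list higher and 7 lower. Ccl4 stood at 274 CPM in macrophage only cells and 1449 CPM in the both state, Ccl3 at 125 and 626 CPM and Il1a at 44.6 and 367 CPM. Csf1, the growth factor of microglia, had 0 UMIs in macrophage only cells and 197 in the both state, where 28 of 65 cells held one. Cxcl2 went the other way at 990 and 311 CPM. MHC class II genes were higher in macrophage only cells (4 of 5), but rested on few cells, with H2-Aa in 6 of 32 and Cd74 in 7 of 32, against 2 and 23 of 65.

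**Figure D2:**
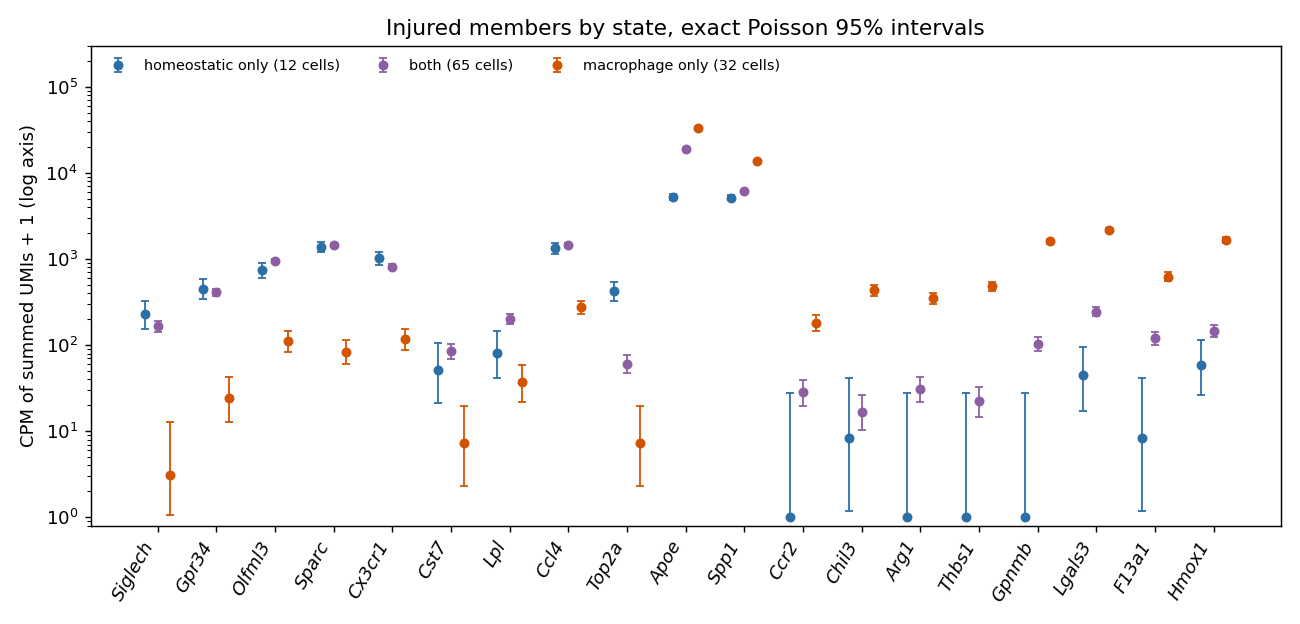
Level of 19 genes in injured members of 3 states, as CPM of summed UMIs plus 1 on a log axis, with exact Poisson 95% intervals. Siglech to Ccl4 are lower in the 32 macrophage only cells than in the 65 both-state cells, and Ccr2 to Hmox1 are higher.

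Cell cycle transcripts were seen in the injured members. At least 2 UMIs of Mki67, Top2a, Cdk1, Cenpf, Birc5 and Ccnb1 together were held by 21 of 112 injured members (18.8%, 12 to 27.2%) and by 0 of 29 uninjured members, which allows a share of up to 10.3% of cells with such UMIs at their depth, a median of 3711 gene UMIs, and sets no limit on dividing cells. Of the 21 cells 17 were in the both state, 2 homeostatic only and 2 macrophage only. The median depth of the 21 was 22784 gene UMIs, and in cells thinned to 1000 UMIs 11 of 105 injured and 0 of 26 uninjured members held a UMI. Without thinning, 5.64% of the injured reference cells met the count that the 21 cells met, and 0.0259% of the uninjured ones. The reference cells had median depths of 4996.5 and 3438.5 gene UMIs. Top2a, a topoisomerase of dividing cells, was found in 15 injured members, and all 15 held a UMI of P2ry12 or Tmem119, as did 89 of all 112 injured members. The richest of the 15 held 43.8% of the Top2a UMIs. Mki67, another gene of dividing cells, was also found in 15 injured members, of which 3 held no UMI of P2ry12 or Tmem119.

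Between the libraries, 2240 genes reached 100 CPM in the members of at least 1 condition. Of these 248 (11.1%) were higher in injured members by 2-fold or more and 580 (25.9%) were lower, with a median log2 ratio of −0.34 over all genes compared. Centred at that median, 436 were higher and 328 lower, so the excess of lower genes turned with the scaling. Ratios below are uncentred log2 ratios of CPM with 1 CPM added.

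Of the homeostatic list 9 of 15 compared genes were lower by 2-fold or more and 1 was higher, with a median of −1.08. Siglech stood at 125 and 409 CPM (−1.70, −2.17 to −1.22), Sall1, a transcription factor of microglial identity, at 48.6 and 142 CPM (−1.53, −2.33 to −0.68) and Tgfbr1, the receptor for TGF-β that sustains it, at 458 and 1199 CPM (−1.39, −1.65 to −1.11). Selplg, Mef2c, Crybb1 and P2ry13 were lower as well. Other genes of the list were not: Gpr34 stood at 308 and 364 CPM (−0.24, −0.70 to 0.25) and Olfml3 at 705 and 418 CPM (0.75, 0.34 to 1.21). Fcrls, an Fc receptor-like gene, was 2.54-fold higher at 925 and 364 CPM (1.34, 0.90 to 1.83). Centred at the median of all genes, 5 genes of the list were lower and 2 higher.

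Of the monocyte-derived macrophage list 6 of 8 compared genes were higher and 0 lower, with a median of 1.63, which is the same with Arg1 at its bound. Arg1 had 199 UMIs in 17 injured members and 0 in the uninjured, at least 4.27-fold higher with the uninjured set at 3 counts over the group. Fn1, fibronectin, stood at 230 and 8.88 CPM, a ratio of 25.9 that rests on 1 uninjured UMI (4.63 to 1027). Chil3 had 223 UMIs against 1 (14.35, 2.55 to 569). Ccr2 was found in 17 of 112 injured members with 116 UMIs and in 0 of 29 uninjured members. At equal depth, Lyz2 was seen in 81 of 105 injured and 13 of 26 uninjured members, and without thinning in 105 of 112 and 17 of 29. The injured and uninjured reference held it in 6.41% and 0.207% of cells.

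Of 5 compared genes of the border-associated list 2 were lower by 2-fold or more and 1 higher. Mrc1, the mannose receptor, stood at 137 and 444 CPM (−1.69, −2.14 to −1.23) and Pf4, a platelet factor also made by macrophages, at 171 and 657 CPM (−1.94, −2.31 to −1.56), while F13a1 stood at 246 and 329 CPM (−0.41, −0.90 to 0.11). Stab1, a scavenger receptor, was higher at 289 and 124 CPM (1.21, 0.45 to 2.10). The MHC class II list was lower in 4 of 6 genes and higher in 0. Cd74 stood at 334 and 1821 CPM (−2.44, −2.68 to −2.21) and H2-Aa at 82.9 and 631 CPM (−2.91, −3.35 to −2.50), in 8 injured and 5 uninjured cells. Among male-scored cells alone Cd74 was 0.17 higher on the log2 scale, with H2-Ab1 and H2-Eb1 at 0.95 and 0.23. Injured male-scored members held 429 of 585 Cd74 UMIs and uninjured male-scored members 35 of 205. The rest of the uninjured UMIs lay in the 15 members that held neither sex transcript, so this subset leaves out most of them.

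Lysosomal and lipid genes were higher in injured members, with 9 of 17 past 2-fold upward and 1 downward (median 1.07). Apoe, the lipid carrier, ran from 0 to 1072 UMIs per 10000 in injured cells with a median of 177, and from 0 to 404 with a median of 0 in uninjured cells. As sums it stood at 21585 and 6227 CPM (1.79, 1.69 to 1.90). Apoe is also an astrocyte gene, at 5122 CPM in the injured reference and 7889 CPM in the uninjured. No Apoe UMI was held by 16 of 29 uninjured members. The part of astrocyte transcripts in the Apoe of members was not tested. Ctsd, cathepsin D, was found at 12333 and 4255 CPM (1.54, 1.40 to 1.67) and Cd63, a membrane protein of late endosomes, at 1180 and 346 CPM (1.77, 1.31 to 2.26). Lpl had 256 UMIs against 2 (8.24, 2.26 to 68.4), and Cst7 was found in 34 injured cells and in 0 uninjured.

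The uninjured cell rich in Gpnmb set the ratio of several of these genes. Fabp5 had a log2 ratio of −1.55 with it and 6.14 without it, the latter resting on 1 uninjured UMI. Spp1 was found in 97 of 112 injured and 3 of 29 uninjured members, and with each cell thinned to 1000 UMIs in 63 of 105 and 3 of 26. Its CPM was 8154 and 3065 (1.41, 1.26 to 1.57) with that cell. Without the Gpnmb-rich cell the log2 ratio was 7.03, from 6 uninjured UMIs, and without the richest cell of each condition it was 6.80. Without the Gpnmb-rich cell Apoe stood at 2.06, Ctsd at 2.43, Cd63 at 2.67 and Lyz2 at 2.56 on the log2 scale, all further from 0 than with it. Reference cells with a Spp1 UMI came to 13.3% for injured and 1.89% for uninjured mice.

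**Figure D3:**
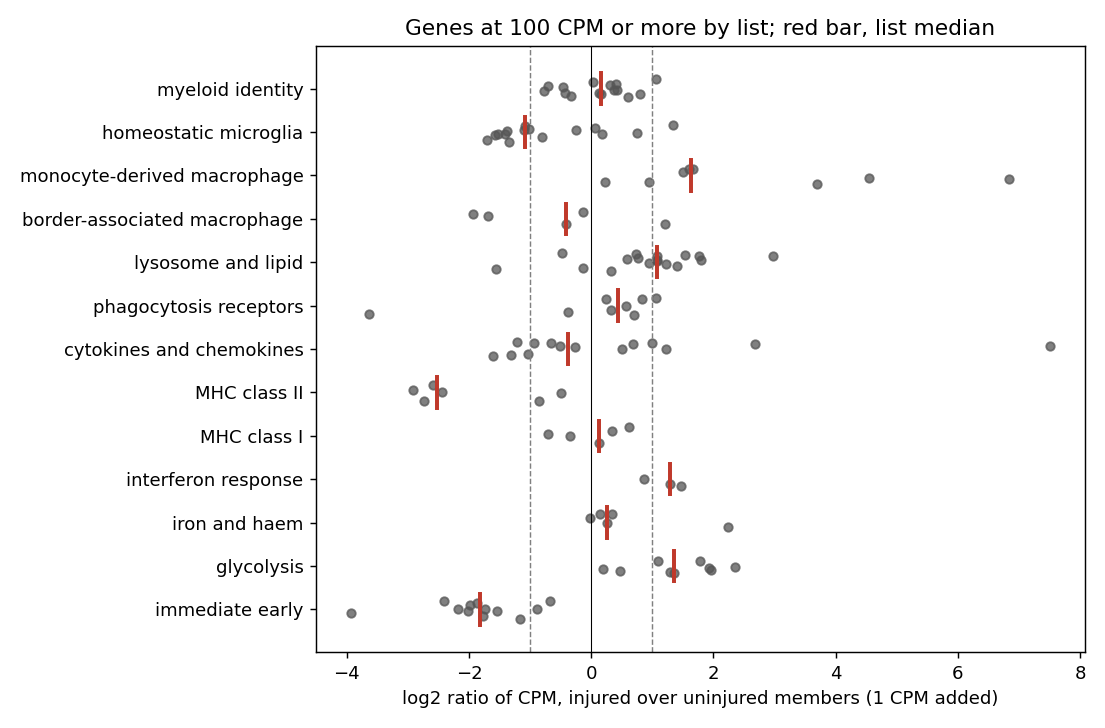
Each point is a gene at 100 CPM or more in the members of at least 1 condition, placed by the log2 ratio of CPM in injured over uninjured members (horizontal axis, 1 CPM added) within its list; red bars are list medians and dashed lines mark 2-fold. The homeostatic, MHC class II and immediate early lists have medians of −1.08, −2.52 and −1.82, and the monocyte-derived, lysosomal and glycolysis lists of 1.63, 1.07 and 1.35.

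Immediate early genes, which answer to stimulation and to tissue dissociation within minutes, were higher in the uninjured members. All 12 of the list had ratios below 0 and 10 were lower in injured members by 2-fold or more (median −1.82). Egr1 ran from 0 to 57.8 UMIs per 10000 in uninjured cells with a median of 22, and from 0 to 27.8 with a median of 0 in injured cells. Its sums were 163 CPM in injured and 2505 CPM in uninjured members (−3.93, −4.18 to −3.70). Jun stood at 815 and 4344 CPM (−2.41, −2.56 to −2.26). In the astrocyte reference Egr1 stood at 59.5 CPM injured and 11.5 CPM uninjured and Jun at 215 and 60.6 CPM, so the same libraries gave the opposite order there. At 1000 UMIs per cell Egr1 was seen in 11.4% of injured and 76.9% of uninjured members. The part of dissociation in this difference was not tested.

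Glycolysis genes were higher in 7 of 9 compared (median 1.35), among them Gapdh at 1705 and 435 CPM (1.97, 1.56 to 2.41) and Pkm, pyruvate kinase, at 522 and 213 CPM (1.29, 0.71 to 1.94). Aldoa has more than 1 entry in the files, and the entry with the most UMIs was used. In the reference Gapdh stood at 1306 and 1539 CPM. Cytokines and chemokines were mixed, with 3 of 14 higher and 4 lower (median −0.38). Cxcl10, an interferon-induced chemokine, had 316 UMIs in 13 injured members and 0 in uninjured members (at least 6.78-fold higher), Ccl7 had 209 UMIs against 2 (6.72, 1.84 to 55.9, with 47.4% of the injured UMIs in 1 cell) and Ccl4 stood at 1116 and 480 CPM (1.22, 0.83 to 1.64). Il1a, Tgfb1, Ccl12 and Ccl2 were lower by 2-fold or more. The 32 UMIs of Ccl2 in uninjured members all lay in the macrophage only cells, 1 of which held 68.8% of them, and without the richest cell of each condition its ratio was 0.23.

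Interferon response genes reached 100 CPM in 3 cases, of which Ifi27l2a and Ifitm3 were higher by 2-fold or more, and Ifit1, Ifit2, Ifit3 and Rsad2 stood at or below 8.88 CPM in both libraries. None of 5 MHC class I genes passed 2-fold in either direction. Of 5 iron and haem genes Hmox1 alone was higher (548 and 115 CPM, with 48.0% of the injured UMIs in 1 cell). Of 8 phagocytosis receptors Fcgr2b was higher and Cd36 lower, at 17.7 and 231 CPM (−3.63, −4.50 to −2.89), and 24 of the 26 uninjured Cd36 UMIs lay in the macrophage only cells. Of 3 compared cell cycle genes Stmn1 was higher. Of the neutrophil list only Csf3r, a receptor that macrophages express too, reached 100 CPM (136 and 222 CPM, −0.70).

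The 10 genes with the highest ratios among those at least 3-fold above the reference were Saa3, Cxcl10, Arg1, Fn1, Chil3, Hebp1, Lpl, Ccl7, Cd52 and Crip1. Saa3, Cxcl10 and Arg1 had 0 uninjured UMIs, so their place rests on the 1 CPM added, and as bounds they stand at 7.01-fold, 6.78-fold and 4.27-fold, below the ratios of Fn1 and Chil3. Saa3, an acute phase protein, had 327 UMIs in 18 injured members with 53.2% of them in 1 cell. Cd52 was spread more evenly, in 102 of 112 injured and 9 of 29 uninjured cells, at 1018 and 169 CPM (2.59, 1.95 to 3.33). The 10 lowest were Cfap74, Egr1, Slpi, Bank1, Cd36, BC035044, Sp4, Birc3, Nup210l and Larp1b, with 12 to 282 uninjured UMIs. Birc3, an inhibitor of apoptosis induced by NF-κB, stood at 74.3 and 702 CPM (−3.22, −3.65 to −2.82) and was found in 21 of 29 uninjured members. All 22 uninjured UMIs of Slpi lay in 1 cell.

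**Figure D4:**
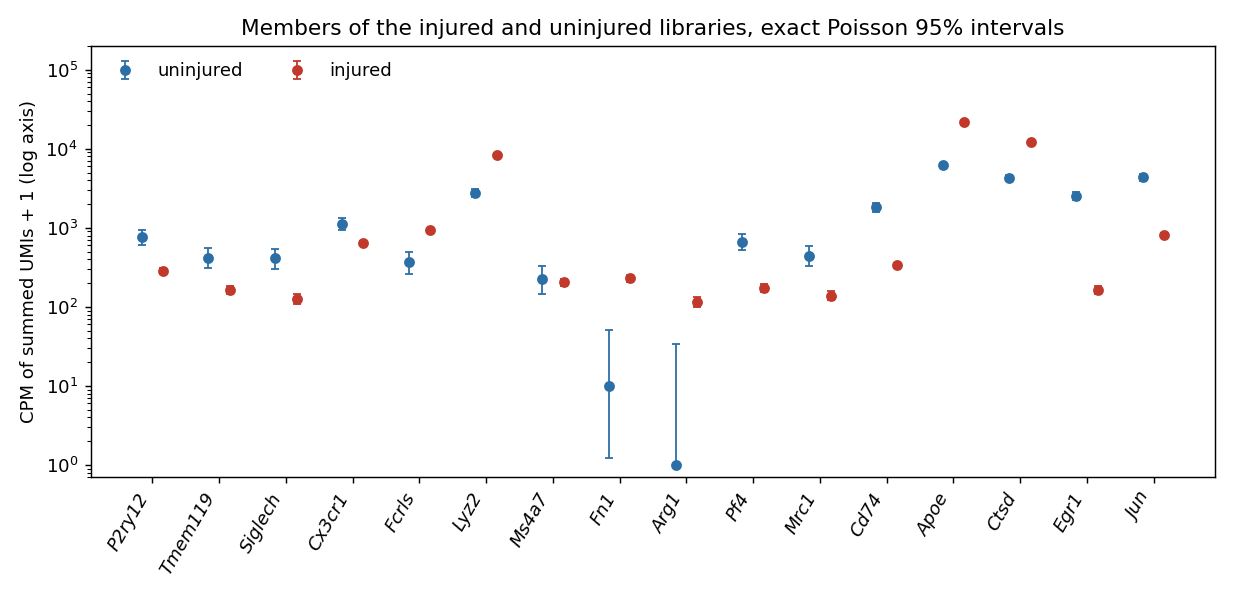
CPM plus 1 of summed UMIs (log axis) for 16 genes in members of the injured (112 cells) and uninjured (29 cells) libraries, with exact Poisson 95% intervals. P2ry12, Tmem119, Siglech, Pf4, Mrc1, Cd74, Egr1 and Jun are higher in the uninjured members, and Lyz2, Fn1, Arg1, Apoe and Ctsd in the injured.

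The states took different shares of the 2 libraries, so members at or over the homeostatic cut were compared alone, 77 injured with 23 uninjured. This choice was made after the values were seen and used P2ry12 and Tmem119, which are left out of the list count. Of 2377 genes compared, 402 (16.9%) were higher by 2-fold or more and 774 (32.6%) lower. Of the other homeostatic genes 8 of 14 were lower and 1 higher, with Siglech at 172 and 567 CPM (−1.72, −2.19 to −1.23) and Selplg at 317 and 715 CPM (−1.17, −1.57 to −0.75), while Fcrls was again higher (1.49, 0.99 to 2.04). Lyz2 was seen in 72 of 77 and 11 of 23 cells and stood at 3330 and 493 CPM (2.75, 2.31 to 3.24). Few cells carried these UMIs: 6 injured cells held 51.1% of them, the richest 912 of 4226, and the both-state cell with Mrc1 and Pf4 held 20 of the 40 uninjured ones. Without that cell the log2 ratio was 3.67 (3.05 to 4.39), and 2.73 (2.10 to 3.45) when the 6 injured cells were left out too.

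In these cells 14 of 16 lysosomal and lipid genes were higher and 0 lower, with a median of 2.30. Spp1 had 7678 UMIs in 65 of 77 injured cells and 0 in 23 uninjured cells (at least 164-fold higher with the uninjured set at 3 counts over the group). Without the 6 injured cells richest in Spp1, 2256 UMIs remained over 71 cells. The bound was then 52.8-fold, with the uninjured both-state cell that held Mrc1 and Pf4 left out too. Apoe stood at 17387 and 2267 CPM (2.94, 2.73 to 3.16), but 178 of the 184 uninjured UMIs lay in the both-state cell that held Mrc1 and Pf4. Without that cell the uninjured level was 78.2 CPM, from 6 UMIs (7.78, 6.67 to 9.24). Ctsd stood at 13411 and 2661 CPM (2.33, 2.14 to 2.53) and Cd63 at 1206 and 148 CPM (3.02, 2.22 to 3.98). Immediate early genes were lower in 9 of 12. Cytokines turned from the pooled comparison, with 8 of 14 higher and 2 lower (Il1a and Tgfb1). Ccl12 had a log2 ratio of 1.47 and Ccl2, with 142 UMIs against 0, was at least 3.03-fold higher. The uninjured macrophage only cells, which the cut leaves out, held 40 UMIs of Ccl12 and 32 of Ccl2. Cd74 stood at 106 and 98.6 CPM (0.10, −0.92 to 1.34). Of the 205 uninjured Cd74 UMIs, 197 lay in the macrophage only cells that the cut leaves out. This subset therefore could not show the lower level seen in all injured members.

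The libraries differed in sex transcripts. Of the injured members 54 were scored male, 38 female and 20 neither, and of the uninjured 14 male, 0 female and 15 neither. Xist had 411 UMIs in the injured members and 0 in the uninjured. Among uninjured kept cells 2 of 4159 were scored female, although the design text gives animals of both sexes per condition. Within the injured library macrophage only cells made up 27.8% of male-scored (15 of 54) and 28.9% of female-scored members (11 of 38). Ccr2 stood at 15.4 and 67.8 CPM in them, Spp1 at 5602 and 9529 CPM and Cd74 at 509 and 30.2 CPM. These sums rest on few cells or UMIs. A single male-scored cell held 175 of 429 Cd74 UMIs and a single female-scored cell 2453 of 7584 Spp1 UMIs. Ccr2 had 13 and 54 UMIs, of 116 in all injured members. A difference by sex was not tested. Animals of the pools cannot be told apart beyond their sex transcripts.

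The sorted reporter was nearly absent from the members. The feature counted is named tdTomato-WPRE, and the viral backbone named in the paper has a WPRE element too. Whether viral transcripts added to its UMIs was not tested. tdTomato stood at 38.9 UMIs per 1000000 gene UMIs in injured members (68 UMIs, 30.2 to 49.3) and at 1815 in the injured reference, a ratio of 46.7 (36.8 to 60.2). It was found in 33 of 112 injured members, in 23 of them as 1 UMI, and in 91.0% of the reference. In uninjured members it had 0 UMIs, and the reference stood at 418 per 1000000, at least 15.7-fold higher with the members set at 3 counts over the group. The member that met the astrocyte cut held 13 of the 68 UMIs, and the reporter stood at 31.6 per 1000000 without it.

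Enhancer barcodes behaved differently from tdTomato. Of 23 barcode features, named M in 19 cases and A in 4, injured members held 390 UMIs, or 223 per 1000000 gene UMIs (201 to 246), and the injured reference 248 per 1000000 (230 to 267). M5 stood at 77.7 per 1000000 in members and 85.6 in the reference (ratio of reference over members 1.10, 0.889 to 1.37), A1 at 90.3 and 87.4 (0.967, 0.789 to 1.19), A5 at 29.7 and 36.3 (1.22, 0.866 to 1.74), M8 at 16.6 and 23.6 (1.42, 0.908 to 2.28) and M24 at 7.43 and 13.4 (1.80, 0.939 to 3.69). All 5 intervals included 1. Members with an M5 UMI came to 60.7% and reference cells to 39.2%, at median depths of 14398.5 and 4996.5. Of the other features M11 and M21 had 1 UMI each in injured members, and 16 had none.

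In the uninjured library A5 was the only barcode in members, with 14 UMIs in 9 of 29 cells, or 124 per 1000000 (68.0 to 209). The uninjured reference stood at 58.4 per 1000000 (54.6 to 62.4), and members were 2.13-fold higher (1.16 to 3.59). M5 and A1 had 0 UMIs in both the members and the reference of this library.

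**Figure D5:**
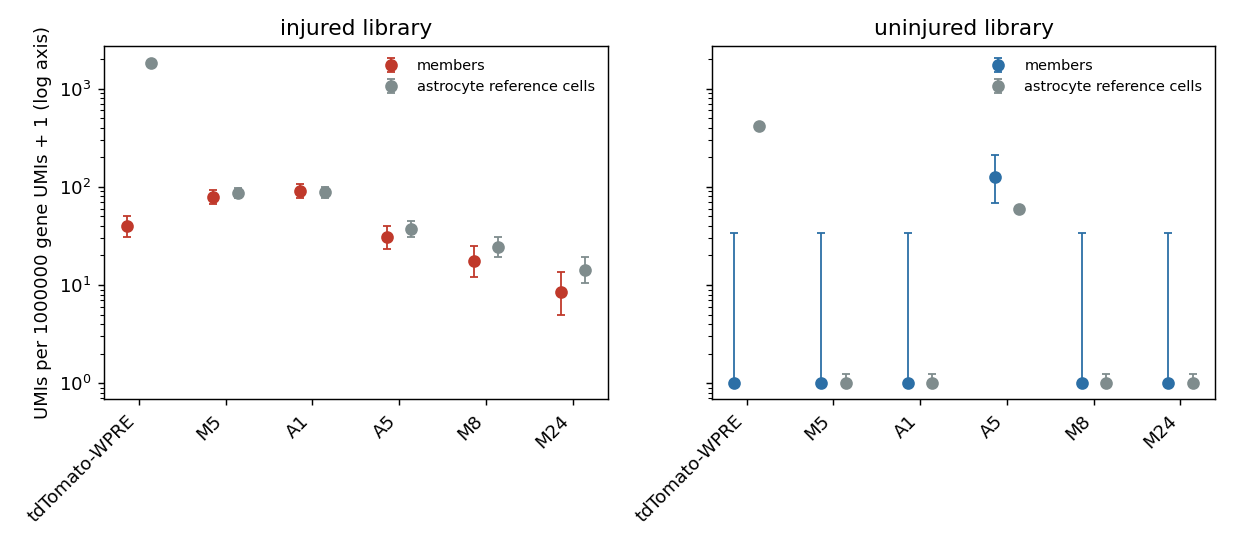
UMIs of tdTomato and of 5 enhancer barcodes per 1000000 gene UMIs plus 1 (log axis) in members and astrocyte reference cells of each library, with exact Poisson 95% intervals. In the injured library tdTomato is 46.7-fold lower in members while the barcodes lie close to the reference; in the uninjured library A5 alone is above 0 in members.

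Transcripts of astrocytes did not keep their ratio to the barcodes in the members. Per M5 UMI, injured members held 0.588 Gfap UMIs (80 over 136, 0.441 to 0.781) and the reference 28.3 (24.9 to 32.3). tdTomato per M5 UMI was 0.5 (0.368 to 0.674) and 21.2 (18.6 to 24.2). Among the barcodes the ratios were near those of the reference, with M5 per A1 UMI at 0.861 (0.679 to 1.09) and 0.980 (0.818 to 1.17). Gfap per tdTomato UMI was 1.18 (0.841 to 1.65) in members and 1.34 (1.29 to 1.38) in the reference, but Slc1a2 per tdTomato UMI was 0.824 (0.568 to 1.19) and 1.60 (1.54 to 1.66). The member that met the astrocyte cut held 41 of the 80 Gfap UMIs, and without it the members stood at 0.709 (0.458 to 1.09) for Gfap and 0.291 (0.156 to 0.515) for Slc1a2. The source of the barcode UMIs in members was not tested.

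M5 stood at 97.6 per 1000000 in the shallowest injured members (38 cells, 515 to 10045 gene UMIs), 58.9 in the middle group and 84.6 in the deepest group (37 cells, 19901 to 49940), with overlapping intervals. In the deeper groups A1, A5 and M8 were lower, with A1 at 108, 94.5 and 84.6 per 1000000, A5 at 48.8, 35.7 and 22.9 and M8 at 21.7, 19.6 and 13.9, and the intervals of the shallowest and the deepest group overlapped for each. tdTomato stood at 97.6, 55.3 and 18.9 per 1000000 in the same groups, but 1 cell in the shallowest group, which met the astrocyte cut, and 1 of 19814 gene UMIs in the middle group held 13 UMIs each. Without these cells it stood at 28.4 (9.21 to 66.2), 33.3 (19.7 to 52.6) and 18.9 (11.4 to 29.5). By state, M5 stood at 106 per 1000000 in macrophage only cells and 66.2 in the both state (1.60, 1.10 to 2.32) and A1 at 91.3 and 87.4 (1.04, 0.713 to 1.51).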

How the data were processed

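The matrices that the authors deposited, 1 for each condition, hold raw counts of UMIs for 32287 gene features, of which tdTomato-WPRE and EGFP were added sequences, and of 23 enhancer barcode features in the same cells. The submitters' processing notes name Cell Ranger 8.0.1 and mm10, while the file headers give Cell Ranger 7.1.0. The counts are not normalised. The limits on gene UMIs are those of the study. No doublets were removed, and members holding astrocyte transcripts were counted instead. UMIs of members were summed per condition and scaled to 1000000 gene UMIs. Genes that reached 100 CPM in either condition were compared by log2 ratio with 1 CPM added. Intervals are exact at 95% (Clopper-Pearson, Poisson, and conditional binomial for ratios, the last without the added 1 CPM). No p-values were computed, since each condition had 1 library pair. The code was tested on simulated data with 200 changed genes. Gene positions came from GENCODE M21 by identifier (32235 of 32285 matched). Python 3.11.15, numpy 2.4.6, scipy 1.17.1 and pandas 2.3.3 were used.

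Named genes were those of 26 lists (243 of 244 genes found; Clec7a was not analysed here), the 10 highest and 10 lowest ratios among genes at least 3-fold above the reference of the same library, and the 10 genes per library with the highest ratio over the reference. The members, lists and cuts were chosen with earlier results of these data known. Alternatives were other cuts on depth and C1q, members without the astrocyte cut, male-scored cells, equal weight per cell, thinning, pseudocount and filter. Leaving out the Gpnmb-rich cell or the richest cells, centring, the homeostatic-positive subset and its values without single cells rich in a gene were added after the data were seen. Lists of astrocyte, lymphocyte, endothelial, oligodendrocyte, oligodendrocyte precursor, ependymal, fibroblast, neuron and erythroid genes had no gene at 100 CPM in members, and the dendritic cell list had only Siglech. Some list genes are counted but not reported here by name.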

Additional observations from a re-analysis of the deposited data

How the results depend on the processing

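No paired analysis was possible because there was a lone library pair for the injured and for the uninjured mice. Of 156 recomputed main values, 134 stayed within their own interval or, for counts, within 1.5 times. The injured share became 17.1% among male-scored cells. The homeostatic to macrophage ratio of injured members became 0.0569 at 30 C1q UMIs per 10000 and 0.0623 among male-scored cells, and the uninjured ratio 0.875 without the Gpnmb-rich cell. With both cuts doubled the injured both state held 32.1% and homeostatic only 29.5%, and with both halved the both state held 70.5%. Thinned to 1000 UMIs the injured states held 26.7% (both), 50.5% (macrophage only) and 9.52% (neither), and uninjured homeostatic only 38.5%. Neither held 0% among male-scored cells.

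Of 2240 genes compared, 248 (11.1%) were higher and 580 (25.9%) lower. Higher and lower genes came to 439 and 991 thinned to 1000 UMIs, 461 and 1000 at a minimum of 50 CPM, 4911 and 2740 with no minimum and 436 and 328 when centred. Higher genes numbered 391 without the richest cells and 402 of 2377 compared (16.9%) in homeostatic-positive members. The number of genes compared depends on the cells and the minimum used, so counts from different settings are not shares of the same total. For 77 named genes past 2-fold, 1155 ratios were recomputed. Of these 1085 stayed past 2-fold in the same direction, 51 fell short of it and 19 changed sign. With male-scored cells alone, 59 of the 77 stayed, 14 fell short and 4 changed sign. Thinned to 1000 UMIs, 65 stayed, 11 fell short and 1 changed sign. The sign changes among male-scored cells were Ccl2 (1.01), Cd74 (0.17), H2-Ab1 (0.95) and H2-Eb1 (0.23). In homeostatic-positive members they were Ccl12 (1.47), Ccl2 (6.82), Cd74 (0.10), Fabp5 (7.91), H2-Aa (2.30), H2-Ab1 (4.32), H2-Eb1 (3.15) and Slpi (1.37). Without the richest cells they were Ccl2 (0.23), Fabp5 (5.95) and Slpi (3.58), and without the Gpnmb-rich cell Fabp5 (6.14) and Slpi (3.93). Fabp5 stood at 0.21 with equal weight per cell and Slpi at 3.40 when thinned. The fewer cells or lower minimum of each alternative is its construction, and the cause was not tested further.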
